A study of Mus musculus with 6 samples.

Results

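The 10 genes described here belong to fibroblast growth factor (FGF) signalling and to the feedback that it sets on the kinase ERK. They are the ligands Fgf4 and Fgf8, the receptors Fgfr1 and Fgfr2, the feedback inhibitors Spry2, Spry4 and Dusp6, and the ERK-responsive transcription factors Etv4, Etv5 and Egr1. Every probe set annotated to exactly 1 of these symbols was taken, which gave 24 probe sets of the 34945 with a single symbol (10 of 18193 genes). Cells were mouse embryonic stem cell derivatives of ES-E14TG2a on a 129P2 background, all kept for 2 days in the neural differentiation medium N2B27 and all carrying a microRNA-type hairpin (shRNAmir) that targets Geminin and that doxycycline (Dox) switches on. Dox, at 500 ng with no volume stated, was given to the GemKD cultures and not to the uninduced controls. Experiments 1 and 3 used the line with shRNAmir 11 and experiment 2 the line with shRNAmir 9, with 1 GemKD and 1 control array in each, so 3 arrays stood in each group. The labels do not say whether a line was 1 clone, and Dox and the loss of Geminin cannot be told apart because no array had Dox without a hairpin against Geminin.

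FGF ligands bind receptor tyrosine kinases together with heparan sulphate, and the receptors pass the signal through adaptors and Ras to the kinases Raf, MEK and ERK. ERK then switches on its own brakes, among them Sprouty proteins and the ERK phosphatase Dusp6, along with ETS and Egr transcription factors, so the RNA of these genes is widely read as a record of ERK activity. In mouse embryonic stem cells Fgf4 is made by the cells themselves and is known for driving their exit from naive pluripotency, a step that comes before neural commitment.

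Gmnn, the target of both hairpins, had a signal of 3463 to 3557 in the controls and 983 to 1669 in GemKD. Its log2 difference of -1.44 (SE 0.17) had an adjusted p of 0.296 in limma without the experiment as a block and of 4.03e-04 with it, so the unblocked fit did not call the target itself. The arrays of experiment 3 stood apart from the other 4 in both groups. Over 22518 brighter probe sets the SD of the log2 difference was 0.17 to 0.22 within an experiment, 0.16 to 0.22 between experiments 1 and 2, and 0.40 to 0.43 between experiment 3 and the others. The labelled tissue is neurectoderm, and the neural marker Sox1 had 2108 to 2443 in experiments 1 and 2 and 523 to 577 in experiment 3. A signal is the deposited linear intensity of a probe set, and log2 differences were taken on log2(signal + 16), which understates the change of dim probe sets. A probe set was tested if its mean signal was above the 30th percentile, 20.1, and 22 of the 24 passed, from 9 genes. Signals of different probe sets are not compared with each other, and in these bulk RNA samples fewer cells of a type and less RNA per cell cannot be told apart.

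Knockdown of Geminin was first compared with the uninduced state. None of the 22 tested probe sets was called in limma at an adjusted p under 0.05, with or without the experiment as a block (adjusted p = 1 for each without the block, and at least 0.992 with it). Over all 31526 tested probe sets the same rule called 1 without the block (0.00317%) and 3 with it (0.00952%). At an unadjusted p under 0.05 stood 1 of the 22 without the block and 5 with it, against 346 and 1456 of all tested. The 5 were Fgf4 at 1420085_at and 1420086_x_at, Fgfr1 at 1425911_a_at, Spry2 at 1436584_at and Etv5 at 1420998_at, and each had an adjusted p of 0.992 with the block. Intervals below are from the fit without the block, and for these 5 also from the fit with it, which takes the arrays of an experiment as a pair. The median log2 difference of the 22 was -0.01, against 0.01 over all tested, and 11 of them were positive. GemKD lay on the same side of its own control in all 3 experiments for 8 of the 22, 4 higher and 4 lower, where 24% of all tested probe sets did so (13.5% higher and 10.5% lower). The values of each gene follow, by role.

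**Figure D1:**
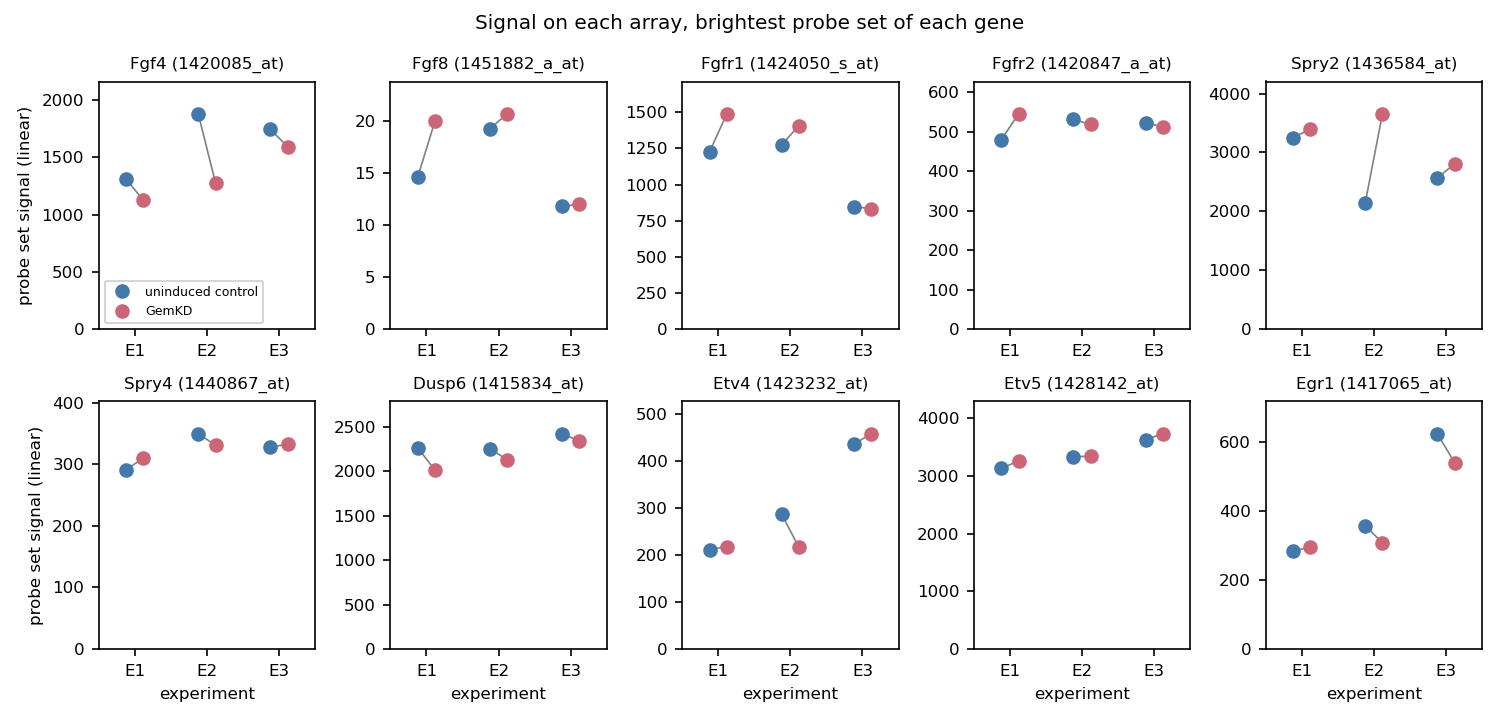
Linear signal of the brightest probe set of each of the 10 genes on the 6 arrays, with experiment on the horizontal axis, controls in blue and GemKD in red, and a grey line joining the arrays of 1 experiment. Fgf4 lies lower in GemKD in every experiment, Spry2 differs most in experiment 2, and Fgfr1, Etv4 and Egr1 differ most between experiment 3 and the other experiments.

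Of the ligands, Fgf4, the autocrine ERK-activating ligand of these cells, had signals of 1309, 1881 and 1745 in the controls of experiments 1, 2 and 3 and of 1128, 1278 and 1594 in GemKD (probe set 1420085_at). GemKD was lower in each experiment, at 86.2%, 67.95% and 91.4% of its own control, but the groups overlapped, since the experiment 1 control lay below the experiment 3 GemKD array. The log2 difference was -0.30 (SE 0.17, 95% interval -0.68 to 0.09), which did not pass in limma. With the block the interval was -0.47 to -0.13. A second Fgf4 probe set, 1420086_x_at, followed it closely (r = 0.99 over 6 arrays) with 1226, 1813 and 1591 in the controls and 1046, 1243 and 1449.9 in GemKD. Its log2 difference was also -0.30 (SE 0.17), with a blocked interval of -0.47 to -0.13. The third, 1450282_at, had 489, 558 and 617 in the controls and 486, 515 and 529 in GemKD. There the log2 difference was smaller, at -0.11 (SE 0.12), with -0.01 in experiment 1. The remaining Fgf4 probe set, 1449729_at, ranged from 15.5 to 33.5, around the filter limit, and went down in experiments 1 and 2 and up in experiment 3. Fgf8, a ligand of gastrulation and of the midbrain and hindbrain boundary, was represented by 1 probe set that stayed below the filter. It had 14.6, 19.2 and 11.8 in the controls and 20.0, 20.7 and 12.01 in GemKD, so no change of Fgf8 could be measured here.

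Among the receptors, Fgfr1, the main FGF receptor of pluripotent cells, had signals of 1225, 1276 and 846 in the controls and 1489, 1406 and 834 in GemKD (1424050_s_at). GemKD was higher in experiments 1 and 2 and level with its control in experiment 3, with log2 ratios of 0.28, 0.14 and -0.02. The probe set 1425911_a_at had 565, 579 and 397 in the controls and 819.6, 789.5 and 436 in GemKD. Its log2 difference of 0.36 (SE 0.25, 95% interval -0.23 to 0.95) was the highest of the 22 probe sets, with 0.52, 0.44 and 0.13 in the 3 experiments, and it was not called. The blocked interval was 0.16 to 0.56. The dimmer 1436551_at gave 0.05 (SE 0.20), with -0.16 in experiment 2, so the probe sets of Fgfr1 did not share a direction in every experiment. Fgfr2, a receptor of epithelial and trophoblast lineages, had 479.6, 531 and 522 in the controls and 545, 518 and 512 in GemKD (1420847_a_at, log2 difference 0.04, SE 0.10). Its 1433489_s_at lay between 386 and 485 with a log2 difference of 0.09 (SE 0.11). A further Fgfr2 probe set, 1443211_at, had signals of 3.2 to 19.1 and was below the filter.

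Of the feedback inhibitors, Spry2, which blocks signalling between the receptor and ERK, had signals of 3250.2, 2136 and 2566 in the controls and 3397, 3656 and 2807 in GemKD (1436584_at). Experiment 2 differed most, at 171% of its control against 104.5% and 109% in experiments 1 and 3, and its control was the lowest of the 6 arrays. Over all 3 experiments the log2 difference was 0.32 (SE 0.16, 95% interval -0.04 to 0.68), with a blocked interval of 0.09 to 0.55, and it was not called. The other Spry2 probe set, 1421656_at, ran the opposite way over the arrays (r = -0.84 over 6 arrays), with 205, 246 and 217 in the controls and 217, 205 and 234 in GemKD. Spry4, a related inhibitor, gave log2 differences between -0.08 and 0.22 in its 4 probe sets. In 1 of them, 1445669_at, the GemKD array of experiment 3 had 266 while the other 5 arrays had 129 to 165. The other Spry4 probe sets had log2 ratios of 0.02, 0.20 and 0.22 in that experiment, against 0.96 in this one. Dusp6, which removes the activating phosphates of ERK, had 2263, 2256 and 2423 in the controls and 2011, 2128 and 2341 in GemKD. GemKD was lower in each experiment by a small amount, with a log2 difference of -0.10 (SE 0.08, 95% interval -0.28 to 0.07), and was not called.

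**Figure D2:**
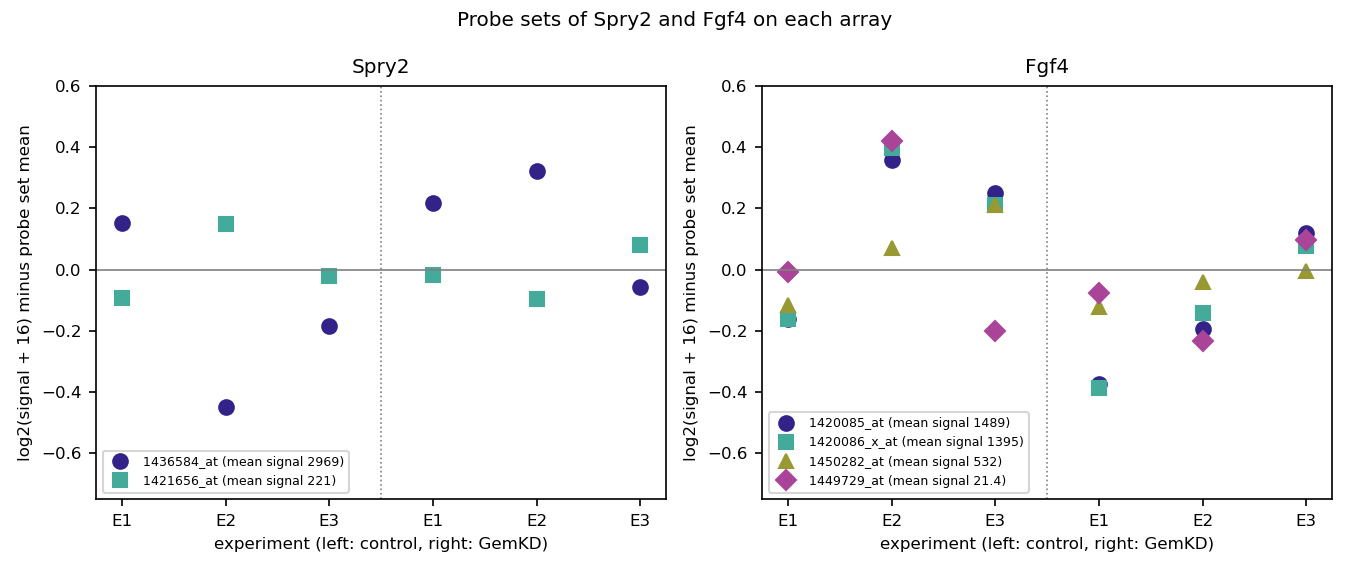
Log2(signal + 16) of each probe set of Spry2 (left) and Fgf4 (right) on the 6 arrays, each minus its own mean, with the controls on the left of each panel and GemKD on the right. For Spry2 the probe set 1436584_at is lowest on the control array of experiment 2, where 1421656_at is highest; the 2 brighter probe sets of Fgf4 move together on all arrays.

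Windows of 250 bases before to 50 bases after the annotated start are shown for the feedback inhibitors Spry2 and Dusp6 and the transcription factor Etv5. They come from the RefSeq promoter table (build GRCm38.p6). ERK acts on such genes through ETS factors, whose recognition core is GGAA. Capitals mark each GGAA or its reverse complement TTCC, overlapping matches counted. The windows are chr14:105896770-105897069 on the minus strand for Spry2, chr10:99262981-99263280 on the plus strand for Dusp6 and chr16:22439521-22439820 on the minus strand for Etv5.
Spry2: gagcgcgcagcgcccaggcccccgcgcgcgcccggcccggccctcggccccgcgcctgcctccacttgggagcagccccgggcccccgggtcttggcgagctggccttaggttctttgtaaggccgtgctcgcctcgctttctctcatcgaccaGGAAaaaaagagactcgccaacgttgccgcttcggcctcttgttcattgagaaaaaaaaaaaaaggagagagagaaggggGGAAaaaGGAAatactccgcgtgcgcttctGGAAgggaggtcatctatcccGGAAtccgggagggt
Dusp6: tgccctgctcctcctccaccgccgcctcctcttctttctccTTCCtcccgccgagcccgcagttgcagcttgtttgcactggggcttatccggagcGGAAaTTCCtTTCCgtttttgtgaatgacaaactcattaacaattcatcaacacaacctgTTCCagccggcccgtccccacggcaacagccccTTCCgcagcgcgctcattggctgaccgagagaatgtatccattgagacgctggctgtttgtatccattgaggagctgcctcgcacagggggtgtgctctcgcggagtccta
Etv5: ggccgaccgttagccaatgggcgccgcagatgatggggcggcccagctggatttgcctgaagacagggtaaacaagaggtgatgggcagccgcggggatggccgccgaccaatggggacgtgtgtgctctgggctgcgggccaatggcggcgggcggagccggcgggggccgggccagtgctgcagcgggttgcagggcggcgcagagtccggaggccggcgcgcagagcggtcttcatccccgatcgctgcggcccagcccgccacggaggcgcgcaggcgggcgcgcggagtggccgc
The Spry2 window holds 5 matches, the Dusp6 window 6 and this Etv5 window 0, while a window at a second annotated Etv5 start (chr16:22438319-22438618) holds 6. At least 1 match lies in 96% of the 32851 windows of the table. The longer ETS motif CCGGAA, or TTCCGG on the other strand, which contains the core, lies in 14.9% of windows. Among these windows it was found in that of Spry2 alone, starting 33 bases after the start. Such a match is a string of letters and not a binding site. Windows were also found for Fgf4, with 0 matches, and Fgfr2, with 4.

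Of the transcription factors, Etv4, an ETS factor of the PEA3 group, had 212, 287 and 436 in the controls and 218, 216 and 458 in GemKD (1423232_at). Its GemKD ratio was near 0 in experiments 1 and 3 and negative in experiment 2, at log2 0.04, -0.38 and 0.07. The second Etv4 probe set, 1443381_at, moved with it (r = 0.99 over 6 arrays) but gave a GemKD ratio of the other sign in experiment 1 (log2 -0.03), with 55.2, 73.5 and 147 in the controls and 53.5, 51.3 and 151 in GemKD. Etv5, the closest relative of Etv4 among these genes, had 1008, 941 and 1135 in the controls and 1241, 1220.4 and 1173 in GemKD at 1420998_at. There every GemKD array lay above every control array, the 1 case among the 22 where the groups did not overlap, against 5.09% of all tested probe sets (2.83% higher and 2.27% lower in GemKD). The log2 difference was 0.24 (SE 0.09, 95% interval 0.02 to 0.45), with an unadjusted p of 0.0345 and an adjusted p of 1 in limma, and the blocked interval was 0.07 to 0.40. The brightest Etv5 probe set, 1428142_at, had 3128, 3332 and 3624 in the controls and 3256, 3335 and 3729 in GemKD, a log2 difference of 0.03 (SE 0.08), and 1450082_s_at had 0.13 (SE 0.08). Egr1, an immediate early gene induced within minutes of ERK activation, had 285, 357 and 624 in the controls and 294, 307 and 539.9 in GemKD. Its log2 ratios were 0.04, -0.21 and -0.20 in the 3 experiments.

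**Figure D3:**
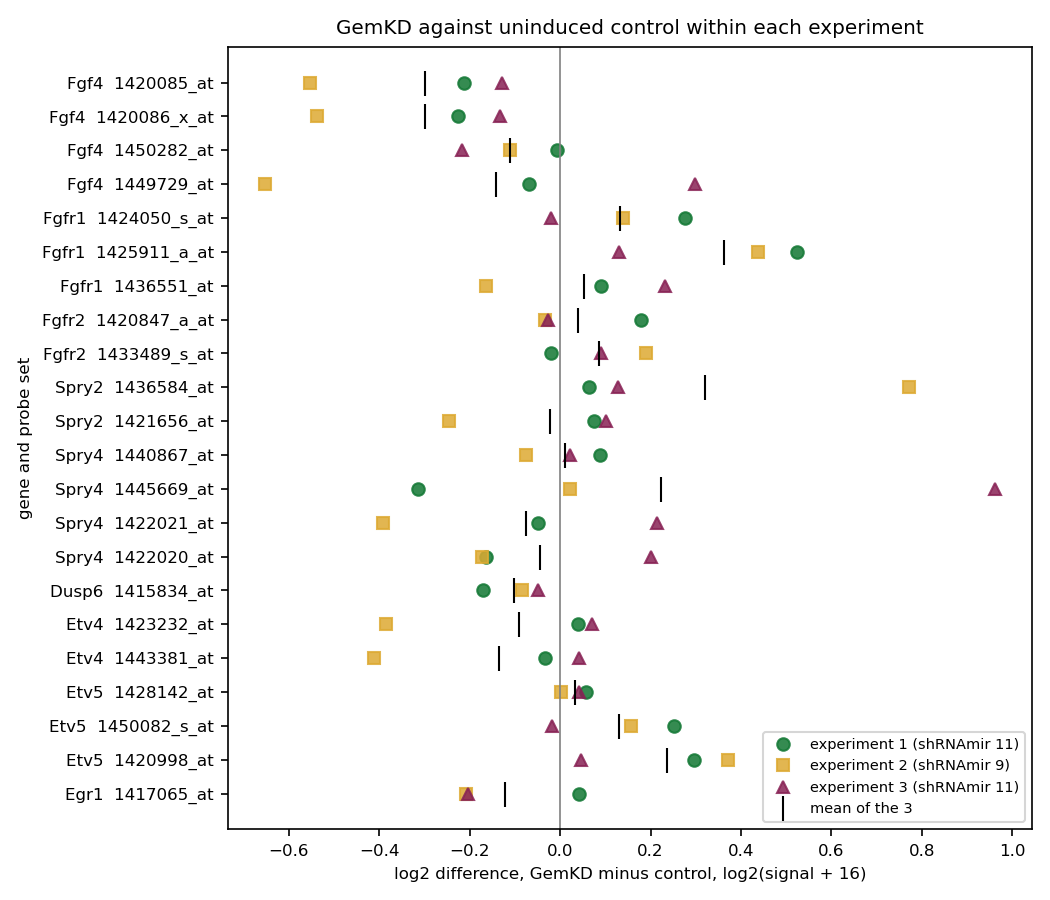
GemKD minus control on the log2(signal + 16) scale within each experiment, for the 22 tested probe sets, with 1 symbol per experiment and a black bar at the mean. Most values lie within 0.4 of 0, and the widest are those of Spry4 1445669_at in experiment 3 (0.96) and Spry2 1436584_at in experiment 2 (0.77).

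The difference between the hairpins was tested as an interaction, shRNAmir 9 in experiment 2 against shRNAmir 11 in experiments 1 and 3. Spry2 at 1436584_at was the 1 called probe set of the 22. Its GemKD effect was higher by 0.67 on the log2 scale under shRNAmir 9 (SE 0.11, 95% interval 0.45 to 0.90, adjusted p = 4.9e-04 in limma), and the opposite sign, -0.33 (SE 0.25), was found at Spry2 1421656_at. The same test called 106 of all tested probe sets (0.336%), with 0.308% higher and 0.0285% lower. Only 1 residual degree of freedom stood behind it, so it rests on the spread borrowed across probe sets, and hairpin 9 was in a single experiment, so hairpin, line and experiment cannot be told apart. The call was lost with no filter (adjusted p = 0.457) and with no intensity trend (adjusted p = 1). The interaction also called Gmnn itself (0.59, SE 0.14, adjusted p = 0.0415), which was left at 48% of its control under shRNAmir 9 and at 27.6% and 36.7% under shRNAmir 11. For Fgf4 the interaction was not called at any probe set. It was -0.38 (SE 0.15) at 1420085_at, -0.36 (SE 0.15) at 1420086_x_at, -1e-04 (SE 0.21) at 1450282_at and -0.77 (SE 0.47) at the dim 1449729_at. Whether the GemKD effect in experiment 3 differed from that in experiments 1 and 2 was tested in the same way, and 0 of the 22 were called in limma (2 of all tested, 0.00634%). At an unadjusted p under 0.05 stood 4 of the 22, against 3465 of all 31526 tested. The smallest adjusted p of the 22 was 0.259 in limma, at Spry4 1445669_at with a difference of 1.11.

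Experiment 3 was then set beside experiments 1 and 2, with GemKD or control as an additional term. In experiment 3 the transcription factors Etv4 and Egr1 were higher and the receptor Fgfr1 was lower, in both GemKD and control, while Spry2, Spry4, Dusp6 and Fgfr2 were not called. Of the 22 tested probe sets 8 were called (36.4%), 5 higher and 3 lower, from 5 genes. Over all tested probe sets 26.4% were called, 10.6% higher and 15.9% lower, so a call in this comparison was common. The fit compares 2 arrays of 1 differentiation with 4 arrays of 2, so its p-values measure the spread within these experiments and do not extend to further ones. The signals of experiment 3 lay outside the range of the other 4 arrays for 9 of the 22, 6 above and 3 below, against 46.5% of all tested (20.8% above and 25.7% below).

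Egr1 had 539.9 and 624 in the 2 arrays of experiment 3 and 285 to 357 in the other 4, so the 2 sets of arrays did not overlap. That was 1.87-fold, from a mean of 311 ± 32.2 (SD, n = 4 arrays) to 582, with a log2 difference of 0.87 (SE 0.10, 95% interval 0.66 to 1.09, limma adjusted p = 8.57e-05). Etv4 at 1423232_at had 436 and 458 in experiment 3 and 212 to 287 in the others, 1.92-fold (log2 difference 0.90, SE 0.12, 95% interval 0.65 to 1.16, adjusted p = 2.28e-04). The probe set 1443381_at was also higher, from a mean of 58.4 ± 10.2 (SD, n = 4 arrays) to 149 (log2 difference 1.16, SE 0.15, adjusted p = 1.97e-04). Etv5, from the same group of ETS factors, was higher by a much smaller step at 1428142_at, with 3624 and 3729 against 3128 to 3335 (log2 difference 0.17, SE 0.04, adjusted p = 0.0131). Its other probe sets had 0.08 (SE 0.08) and 0.02 (SE 0.07) and were not called, and the call was lost without the GemKD array of experiment 3 (adjusted p = 0.0642), against experiment 2 alone (0.105) and with no intensity trend (0.189). Over the 6 arrays the brightest probe sets of Etv4 and Egr1 were the most alike pair of members (r = 0.98), a description over arrays that fall into experiment 3 and the rest.

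Fgfr1 was lower in experiment 3 at all 3 probe sets. The brightest, 1424050_s_at, had 834 and 846 there and 1225 to 1489 in the others, with no overlap (log2 difference -0.67, SE 0.08, 95% interval -0.83 to -0.50, adjusted p = 8.74e-05). The 1425911_a_at value was -0.68 (SE 0.10, adjusted p = 4.16e-04), from a mean of 688 ± 135 (SD, n = 4 arrays) to 417. At 1436551_at it was -0.43 (SE 0.12, adjusted p = 0.0247), and that call was lost without the control array of experiment 1, 2 or 3 or the GemKD array of experiment 1 (adjusted p between 0.0503 and 0.176), with no filter (0.0634), with no intensity trend (0.0685) and against experiment 2 alone (0.121). Fgfr2 at 1420847_a_at stayed level, with 512 and 522 in experiment 3 against 479.6 to 545 (log2 difference -0.001). Its 95% interval, -0.20 to 0.19, leaves out the size found for Fgfr1. Its 1433489_s_at had 454 and 485 in experiment 3, above the 386 to 449 of the other arrays. That log2 difference of 0.13 (SE 0.09) was not called (limma adjusted p = 0.343). The dim 1443211_at, below the filter and not tested, had 14.5 and 19.1 against 3.2 to 9.97.

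Fgf4 at 1420085_at had 1594 and 1745 in experiment 3, inside the range of 1128 to 1881 of the other arrays. The log2 difference of 0.28 (SE 0.08, adjusted p = 0.0286) was lost without the control array of experiment 1 or the GemKD array of experiment 2 or 3 (adjusted p between 0.0645 and 0.313). The call was also lost with no filter (0.0729), no intensity trend (0.177) and no GemKD term (0.13), and the difference was 0.10 against experiment 2 alone (0.49). Against experiment 1, the line with the same hairpin, it was 0.45 (limma adjusted p = 1.09e-04). The other Fgf4 probe sets were not called as fitted, with 0.22 at 1420086_x_at (adjusted p = 0.0717), 0.16 at 1450282_at (0.216) and -0.08 at 1449729_at (0.844). In limma 1420086_x_at was called after quantile normalization (0.26, adjusted p = 0.0397) and against experiment 1 alone (0.42, 4.45e-04). It was also called without the control array of experiment 2 (0.31, 0.00698), and its difference was 0.34 without that of experiment 3. The feedback inhibitors had no called difference as fitted, though some alternatives called one. Dusp6 had 2341 and 2423 in experiment 3 against 2011 to 2263 (log2 difference 0.14, SE 0.05, 95% interval 0.02 to 0.26, adjusted p = 0.0759), and was called after quantile normalization (0.16, adjusted p = 0.0357). Spry2 at 1436584_at had -0.18 (95% interval -0.42 to 0.06). Without the control array of experiment 2, the lowest of the 6, that Spry2 value was -0.35 (adjusted p = 2.26e-05). Without the GemKD array of experiment 1 it was -0.28 (0.0392), and against experiment 1 alone it was -0.31 (3.42e-04). Spry4 lay between -0.08 and 0.29 over its probe sets, and its 1445669_at had 0.84 (0.0031) without the control array of experiment 3.

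**Figure D4:**
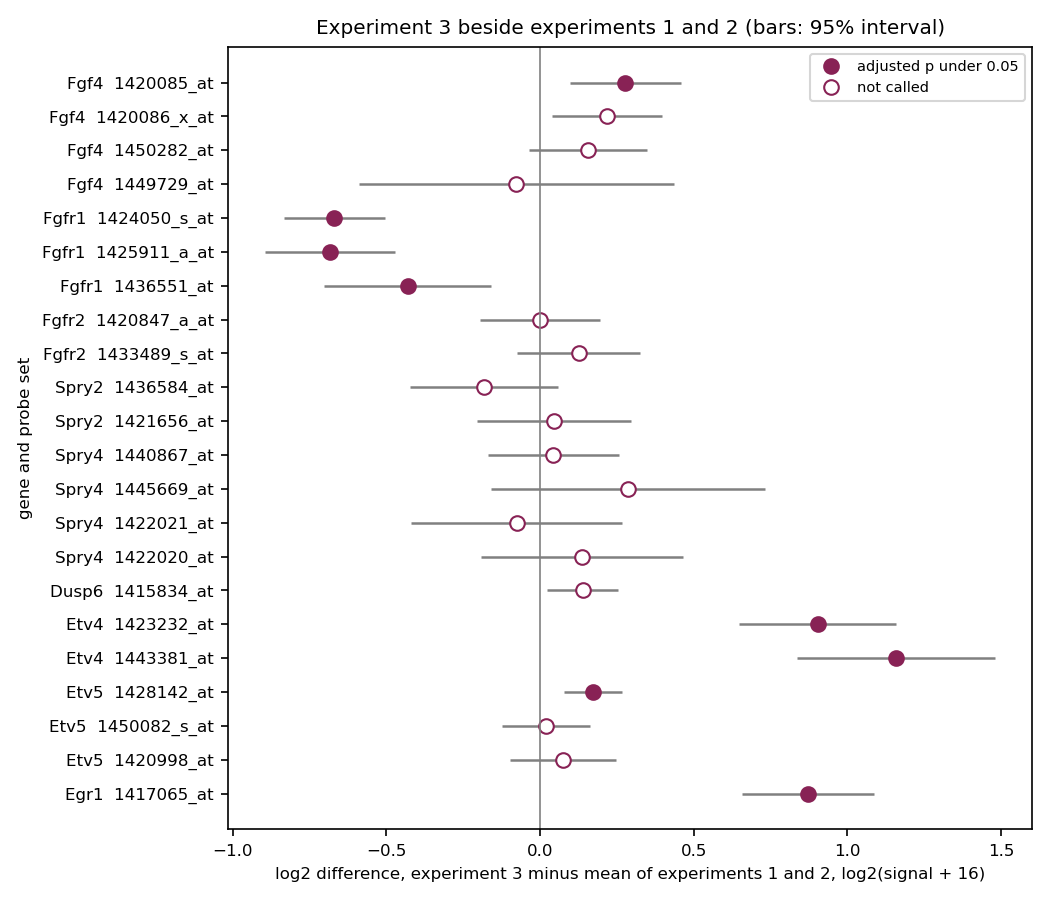
Experiment 3 minus the mean of experiments 1 and 2 on the log2(signal + 16) scale for the 22 tested probe sets, with 95% intervals from limma and filled points for an adjusted p under 0.05. Both probe sets of Etv4 and that of Egr1 lie near 1, the 3 of Fgfr1 lie below -0.4, and those of Spry2, Spry4 and Fgfr2 have intervals that include 0.

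Cell state markers differed between the same arrays. Each marker was read by its brightest probe set, where 30.7% of all genes were called, 10.6% higher and 20.1% lower. The 9 naive pluripotency markers were lower in experiment 3 for 7 and higher for 0, with a summed signal of 4404 to 4918 against 9783 to 12358. Of the markers shared by naive and primed cells, Sox2 was lower by a small step (log2 difference -0.18, SE 0.04) and Pou5f1 was not called (-0.03). All 4 primed epiblast markers, Fgf5 among them, were higher, summing to 20339 to 20693 against 13525 to 15675. A sum follows the brightest probe sets of its list most. Dnmt3b, the brightest primed marker, was 1.14-fold in experiment 3, while Otx2, Pou3f1 and Fgf5 were 1.89-fold, 1.93-fold and 4.89-fold. Of the neural markers 4 of 6 were lower, summing to 1547 to 1756 against 4134 to 4925. Of 5 fibroblast markers 4 were lower and 1 higher, summing to 629.7 to 705 against 1107 to 1144. No tested endoderm, mesoderm or trophoblast marker was called (0 of 4, 3 and 3 in limma), and Afp, Mixl1 and Elf5 lay below the filter. The part of these cell states in the differences of Etv4, Egr1 and Fgfr1 was not tested.

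The wider pathway was read from 5 lists of 80 genes, each gene by its brightest probe set, of which 63 were tested. No gene of these lists was called for GemKD with or without the block in limma, and their median log2 difference was 0.01. The 2 with the widest GemKD difference among ligands were Fgf18 (-0.22, SE 0.27) and Fgf9 (-0.14), at control signals of 26.4 to 64.2. Among feedback inhibitors they were Il17rd, a membrane inhibitor of FGF receptor signalling also called Sef, at 0.27 (SE 0.46) and the Ras pathway inhibitor Spred3 at -0.17 (SE 0.15). Among target factors they were Ier3 at -0.32 (SE 0.19), lower in each experiment, and Fosl2 at 0.20. Klotho (Kl) and Klb, co-receptors for the endocrine FGFs, had 0.34 and -0.19, and the adaptor Shc1 and the scaffold Ksr1 had 0.20 and -0.21. The SEs above are from the fit without the block. With the block the interval was 0.08 to 0.45 for Il17rd (SE 0.08), -0.58 to -0.06 for Ier3 and 0.04 to 0.36 for Shc1. Il17rd and Shc1 were higher in each experiment, and all of these had a blocked adjusted p of 0.992 in limma. The other genes named here had blocked intervals that ran from negative to positive.

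Experiment 3 differed from experiments 1 and 2 at 25 of the 63 (39.7%), 8 higher and 17 lower, where 30.7% of all genes at their brightest probe set were called, 10.6% higher and 20.1% lower. Among other ligands 3 of 10 were higher and 2 lower. Fgf5, the marker ligand of primed epiblast, had 577 and 664 in experiment 3 and 93.8 to 161 in the others (log2 difference 2.17, SE 0.13, adjusted p = 1.1e-06). Fgf1 was lower (-0.76, SE 0.11), with 124 and 127 against 213 to 234, and Fgf3 was higher (0.49, SE 0.15). Of the other feedback inhibitors 1 of 12 was higher and 4 lower. Spry1, the Sprouty relative of Spry2 and Spry4, rose from 287 ± 26 (SD, n = 4 arrays) to 480.1 (log2 difference 0.72, SE 0.09). In the opposite direction went Il17rd, from 968 ± 154 (SD, n = 4 arrays) to 372 (-1.33, SE 0.09, adjusted p = 2.09e-06), together with the ERK phosphatases Dusp5 (-0.61) and Dusp4 (-0.61) and the Ras pathway inhibitor Spred1 (-0.48).

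Of the adaptors and kinases between receptor and ERK, 7 of 15 were lower in experiment 3 and 0 higher in limma. The widest were the Ras exchange factor Sos2 (-0.95, SE 0.10), with 204 and 241 against 422 to 468, the Ras GTPase-activating protein Nf1 (-0.41) and the kinase Braf (-0.36). Among other receptors and heparan sulphate enzymes 2 of 10 were lower and 0 higher, Flrt3 (-0.44), a membrane protein that binds FGF receptors, and the sulphotransferase Hs2st1 (-0.27), while Ext2 had -0.23 and was not called. Of the other target factors 4 of 16 were higher and 2 lower. Junb, a partner in the AP-1 factor, had 72.9 and 108 in experiment 3 against 40.8 to 57.2 (log2 difference 0.66, SE 0.18), and Egr2, a relative of Egr1, had 0.59 and was not called. Elk3, an ETS partner of SRF, was lower (-0.70, SE 0.14). The median log2 difference was 0.26 in this list and -0.16 to -0.07 in the other 4, against -0.01 over all tested probe sets. That last set is not limited to the brightest probe set of each gene. Calls lower made up 15.9% of it, against 20.1% of genes at their brightest probe set.

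**Figure D5:**
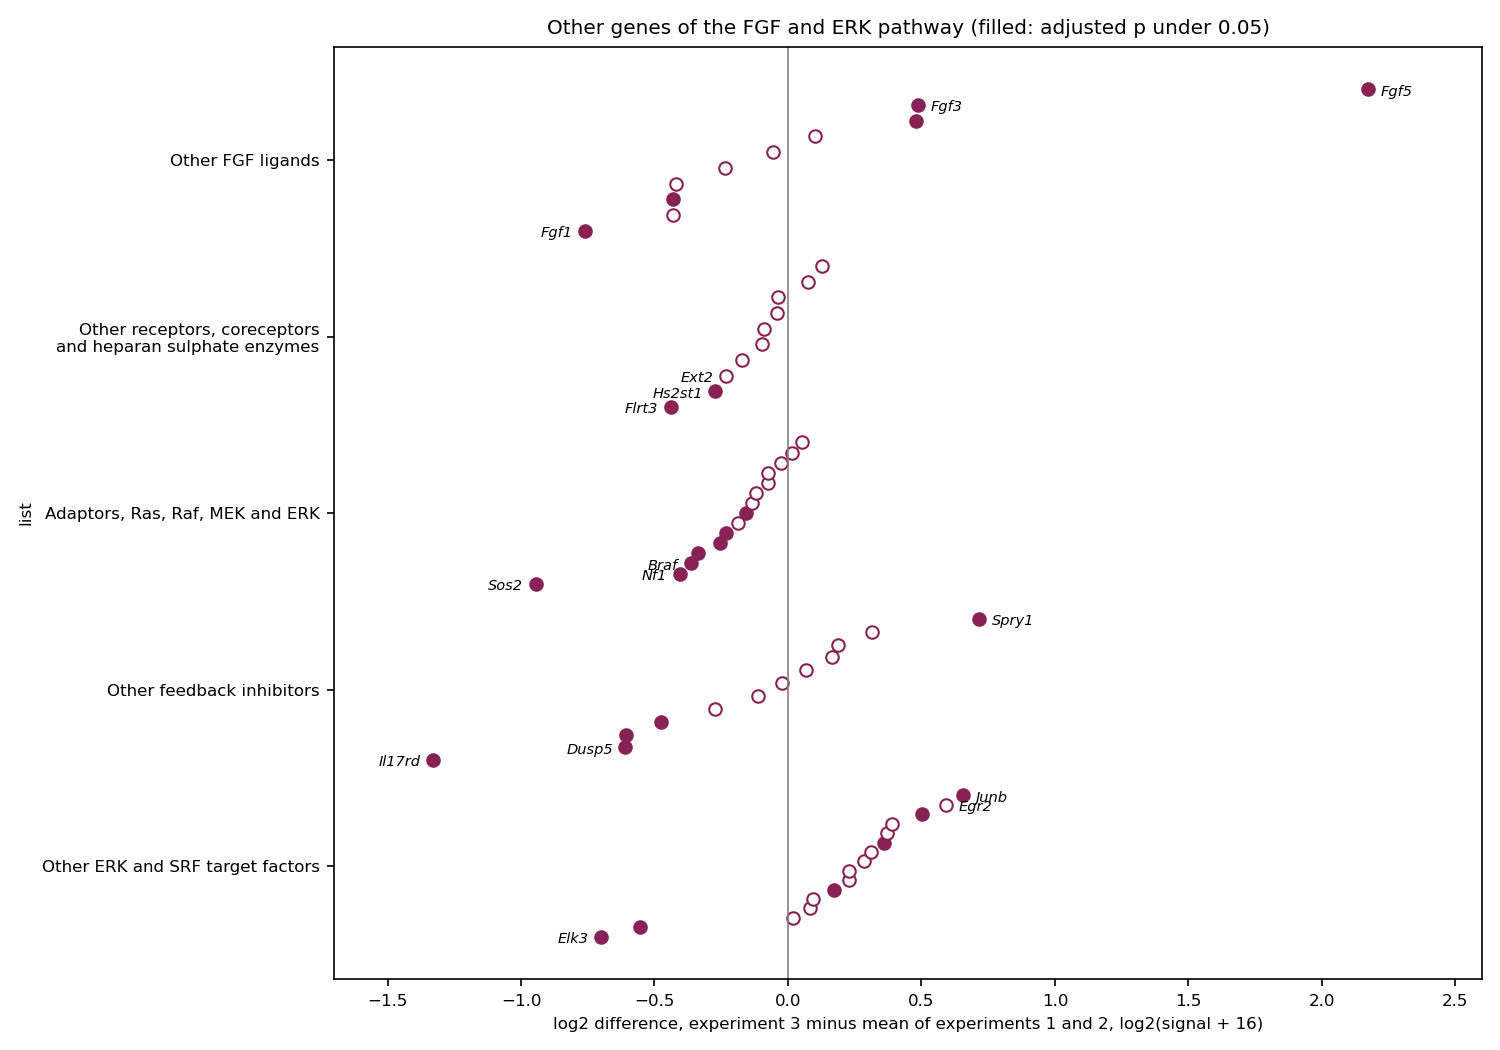
Experiment 3 minus the mean of experiments 1 and 2 on the log2(signal + 16) scale for the 63 other pathway genes, each by its brightest probe set and grouped by list, with filled points for a limma adjusted p under 0.05. Fgf5 lies farthest to the right at 2.17 and Il17rd farthest to the left at -1.33.

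Genes outside the pathway with a pattern most like that of a member were taken over the 6 arrays by Pearson's r on the log2 scale, among 1095 genes whose values spanned at least 1. The brightest probe sets of 2 members, Etv4 and Egr1, spanned that much. Closest to Etv4 were Tcte2 and Pdlim3 (r = 0.996 and 0.995), and closest to Egr1 were Cgnl1 and Rab25 (r = 0.995 and 0.993). As many as 100 genes had an r over 0.95 with Etv4 and 95 with Egr1, so r here separates little beyond experiment 3 and the other arrays.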

How the data were processed

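Total RNA of 6 cultures was read on an Affymetrix mouse expression array, as the extract protocol says. For each array the values deposited by the authors are a linear intensity per probe set, with array medians of 59.3 to 60.9. They were used as deposited, and their software and normalization were not given in the sources used here. Names came from GEO's platform annotation, in which 34945 of 45037 probe sets had 1 gene symbol, 932 several and 9160 none. All 24 member probe sets kept their symbol in a RefSeq table of GRCm38.p6. All 31526 probe sets with a mean above the 30th percentile entered a linear model in limma (version 3.58.1, under R 4.3.3; trended eBayes, two-sided tests, p adjusted by Benjamini-Hochberg over all of them, threshold 0.05), the GemKD comparison without a block and, as an alternative, with the experiment as a block. For GemKD against control, only the blocked fit took the arrays of one experiment as a pair, by the experiment number in the labels. Deviations of such arrays from their group's mean had correlations of 0.43, 0.38 and 0.66 in experiments 1, 2 and 3. Experiments 1 and 2 were less distinct from each other: the GemKD array of experiment 2 had 0.39 with the control of experiment 1 and 0.38 with its own. The fits were tested on simulated data.

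Members, lists and the rule for named genes were chosen with earlier results of these data known. Named were every member probe set and, per list, the 2 genes with the widest GemKD difference and the 3 with the widest difference of experiment 3, with further called genes as examples.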

Additional observations from a re-analysis of the deposited data

Results flagged for a closer look

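Spry2 at probe set 1436584_at was picked out because its GemKD effect differed between shRNAmir 9 in experiment 2 and shRNAmir 11 in experiments 1 and 3 in the interaction fit (0.67 on the log2 scale, adjusted p = 4.9e-04 in limma). shRNAmir 9 had 1 GemKD and 1 control array in a single experiment, so hairpin and experiment cannot be told apart, and with 1 residual degree of freedom the call was lost with no filter (adjusted p = 0.457) and with no intensity trend (adjusted p = 1). The ratios were 0.06 and 0.13 under shRNAmir 11 and 0.77 under shRNAmir 9, whose control array had the lowest Spry2 signal of the 6. The second Spry2 probe set had -0.24 under shRNAmir 9. With 3 arrays in a group, no test for an outlying array was made.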

How the results depend on the processing

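For GemKD against control, 0 member probe sets were called under each of the alternatives run with limma. The members tested were 22, but 24 with no filter, 21 with a filter at the 50th percentile and 9 with 1 probe set per gene. Over all probe sets the call count was 1 as reported. It was 3 with the replicate block and 13 with the replicate block with experiments 1 and 2 alone. It was 0 with no intensity trend, and 0 to 1 when an array or an experiment was left out. The replicate block changed no call of a member.

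For experiment 3 against experiments 1 and 2, 8 members were called as reported. There were 5 with no intensity trend, 5 (of 9 tested) with 1 probe set per gene and 5 against experiment 2 alone, and 6 to 9 when an array was left out, but 10 with quantile normalization and 10 against experiment 1 alone. Over all probe sets 8337 were called as reported, 4261 with no intensity trend, 4822 (of 14185) with 1 probe set per gene, where fewer are tested, and 6294 to 7425 without 1 array. Of the 31526 tested, 8245 were called with quantile normalization, 7095 against experiment 1 alone and 5884 against experiment 2 alone. Etv4, Egr1 and the 2 brighter Fgfr1 probe sets were called under every alternative run. For single members 312 values stayed on their side of the threshold, called or not, while 17 lost a call, 9 gained one and 0 reversed.

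The hairpin interaction called 106 probe sets as reported, 0 with no filter or no intensity trend, 161 with a filter at the 50th percentile and 46 with 1 probe set per gene; the member call, Spry2, became 0 with no filter or no intensity trend. The interaction with experiment 3 called 2, and 1 with a pseudocount of 1 or no filter and 0 with no intensity trend. Leaving out an array leaves no residual degree of freedom in either interaction. Why the counts moved was not tested. Low signals limit Fgf8, 1 Fgf4 and 1 Fgfr2 probe set.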
